A study of Homo sapiens with 2 samples.

Results

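SMAD4 and 9 further genes of transforming growth factor beta (TGF-beta) signalling were followed in single-cell RNA libraries of MDAMB468 and CAL51, 2 lines grown from human breast cancers of the triple-negative class. The 10 genes were taken by symbol: the ligands TGFB1 and TGFB2, the receptors TGFBR1 and TGFBR2, the signal carriers SMAD2, SMAD3 and SMAD4, the inhibitor SMAD7, and the target genes ID1 and ID3. All 10 were found among the 30796 genes of the deposited matrix, and all 10 passed the minimum of 20 unique molecular identifiers (UMIs, counts of single molecules) over both lines. Both lines are breast-derived and were profiled without any treatment named in the labels, by Drop-seq, in which cells are lysed in oil droplets with barcoded beads. MDAMB468 and CAL51 are established lines, and MDAMB468 is widely used as a line deficient in SMAD4. Each line was represented by 1 library, so the differences below lack a replicate check, no p-value could be computed, and line and library cannot be told apart.

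TGF-beta ligands bring together a type II and a type I receptor kinase, and the type I receptor phosphorylates SMAD2 and SMAD3, which enter the nucleus together with SMAD4. Bone morphogenetic proteins (BMPs), ligands of the same family, act through SMAD1, SMAD5 and SMAD9, which also pair with SMAD4 and for which the ID genes are classical targets. SMAD6 and SMAD7 inhibit the receptors and are themselves induced by the pathway, which is known in breast epithelium for restraining growth early and promoting invasion late.

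The MDAMB468 library held 306 barcodes with 5501900 UMIs, a median of 10016.5 per barcode. Of these barcode sequences, 31 also occurred under the CAL51 prefix. Their MDAMB468 barcodes held 40128 to 134213 UMIs each, together 2181232 of the 5501900, so they weigh heavily in the summed MDAMB468 levels. Those 31 CAL51-labelled barcodes were left out, leaving 1346 CAL51 barcodes with 16223444 UMIs, a median of 8635 per barcode. In addition, 64 MDAMB468 and 7 CAL51 barcodes had a neighbour in their own library that differed at 1 base and was at least 5 times as deep. These satellite barcodes were kept, and shares without them are given below. The epithelial markers EPCAM, KRT8 and KRT18 were present in both lines, with 4769, 4203 and 3052 UMIs in MDAMB468 and 4595, 14906 and 25221 in CAL51. KRT7 (5243 and 0 UMIs) and CDH1 (182 and 7), also epithelial, were nearly confined to MDAMB468 in these libraries. KRT19, the remaining epithelial marker looked at, had 10640 UMIs in MDAMB468 and 496 in CAL51, 63.3-fold higher in MDAMB468. The leukocyte markers found in the files, PTPRC and CD14, summed to 3 UMIs in MDAMB468 and 9 in CAL51, and the fibroblast markers PDGFRA, PDGFRB and DCN to 3 and 60.

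Of the 10 genes, 7 were at least 2-fold higher in CAL51 on the scale of log2(CPM + 1), where CPM is counts per 1000000 UMIs of a line. They were SMAD4, SMAD7, ID1, ID3, SMAD3, TGFBR1 and TGFB1. Only TGFB2 was at least 2-fold higher in MDAMB468, and SMAD2 and TGFBR2 passed 2-fold in neither direction. Among all 15347 genes with at least 20 UMIs, 18.6% were at least 2-fold higher in CAL51 and 15.8% in MDAMB468, 34.4% together. The median log2 difference, MDAMB468 minus CAL51, was -1.32 over the 10 genes and -0.13 over all these genes. With a pseudocount of 10 CPM in place of 1, TGFB1, TGFBR1 and SMAD3 no longer reached 2-fold, and 4 genes remained at least 2-fold higher in CAL51. Ranges in parentheses are 95% intervals, exact Poisson for levels, exact conditional for folds and exact binomial for shares, and cover counting error only.

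**Figure D1:**
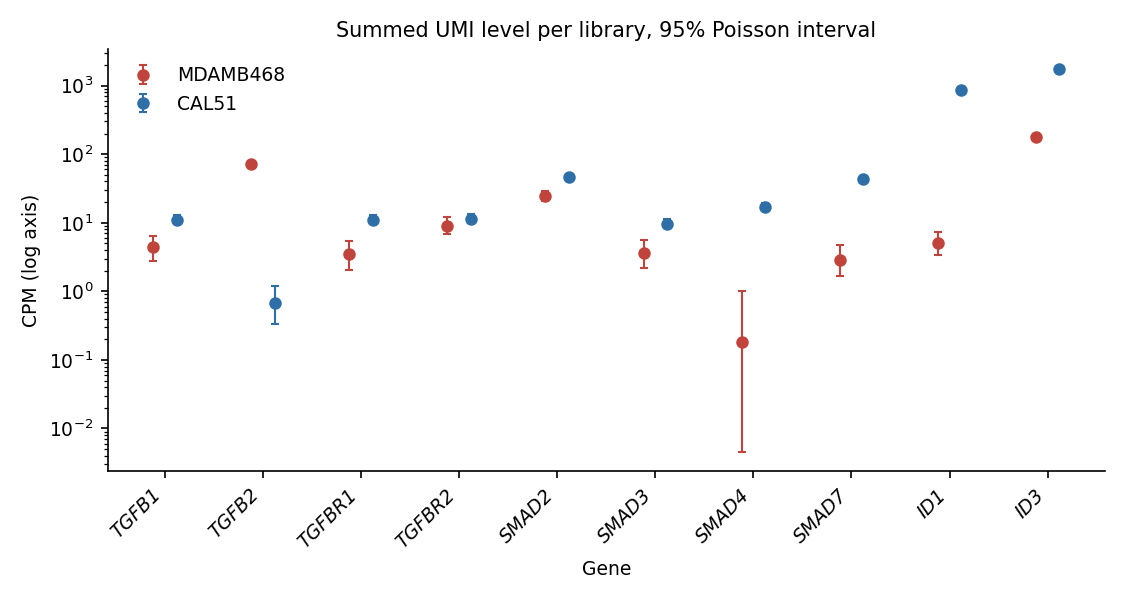
Level of each of the 10 genes in the MDAMB468 library (red) and the CAL51 library (blue), in CPM on a log axis, with 95% Poisson intervals. TGFB2 is the only gene whose MDAMB468 point lies above its CAL51 point, and the SMAD4 point of MDAMB468 rests on 1 UMI.

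The ligands TGFB1 and TGFB2 differed in opposite directions. TGFB2, a ligand that needs the co-receptor betaglycan for efficient receptor binding, had 398 UMIs in MDAMB468, or 72.3 CPM (65.4 to 79.8), against 11 in CAL51, or 0.678 CPM (0.338 to 1.21). It was 107-fold higher in MDAMB468 (59.0 to 215). Its transcripts were spread over 142 of 306 MDAMB468 barcodes and 8 of 1346 CAL51 barcodes. The deepest MDAMB468 barcode, with 134213 UMIs in total, held 48 of the 398, and without it the MDAMB468 level was 65.2 CPM. The 31 left-out CAL51-labelled barcodes held 9 further TGFB2 UMIs, against 11 in the 1346 barcodes kept. Among their 135240 UMIs, 106 were of KRT7, which had 0 in the CAL51 barcodes kept. Another 15 were of GPC3, which had 0 in MDAMB468. Their 9 TGFB2 UMIs can therefore not be assigned to CAL51 cells, and their source was not tested. With these 31 barcodes included, the log2 difference of TGFB2 was 5.04 in place of 5.45, and the counts of the 10 genes past 2-fold stayed at 7 and 1. TGFB1, the most widely produced isoform in most tissues, had 24 UMIs in MDAMB468, or 4.36 CPM (2.79 to 6.49), against 180 in CAL51, or 11.1 CPM (9.53 to 12.8). It was 2.54-fold higher in CAL51 (1.66 to 4.07), an interval that reaches below 2-fold. TGFB1 overlaps HNRNPUL1, CCDC97 and TMEM91 on the other strand, so its count also depends on how the authors' counting treated strand. The third isoform, TGFB3, had 10 UMIs in MDAMB468 and 105 in CAL51, with a log2 difference of -1.41, so TGFB2 alone of the 3 isoforms was higher in MDAMB468 under every setting run.

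Receptor transcripts were scarce in both lines. TGFBR1, the type I receptor kinase that phosphorylates SMAD2 and SMAD3, had 19 UMIs in MDAMB468, or 3.45 CPM (2.08 to 5.39), against 179 in CAL51, or 11.03 CPM (9.48 to 12.8). It was 3.19-fold higher in CAL51, with an interval of 1.99 to 5.43, and its log2 difference of -1.43 became -2.20 with each barcode weighted equally. TGFBR2, the type II receptor that binds ligand first, had 50 UMIs in MDAMB468, or 9.09 CPM (6.75 to 11.98), against 187 in CAL51, or 11.5 CPM (9.93 to 13.3). Its ratio of 1.27 in favour of CAL51 had an interval of 0.924 to 1.77, so a line difference in TGFBR2 was not detectable at this depth.

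The SMADs activated by TGF-beta receptors were both lower in MDAMB468. SMAD2 had 135 UMIs in MDAMB468, or 24.5 CPM (20.6 to 29.04), against 757 in CAL51, or 46.7 CPM (43.4 to 50.1), 1.90-fold higher in CAL51 (1.58 to 2.30). Its log2 difference of -0.90 lay just inside the 2-fold limit, and scaling by TMM or by the median of ratios took it past, to -1.03 and -1.04. SMAD3, its close relative, had 20 UMIs in MDAMB468, or 3.64 CPM (2.22 to 5.61), against 158 in CAL51, or 9.74 CPM (8.28 to 11.4). It was 2.68-fold higher in CAL51, with an interval of 1.68 to 4.51.

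SMAD4, the shared partner of all receptor-activated SMADs (ENSG00000141646; GRCh38, chromosome 18, 51028394 to 51085045, plus strand), had 1 UMI in MDAMB468 and 280 in CAL51. Its level was 0.182 CPM in MDAMB468 (0.0046 to 1.01) and 17.3 CPM in CAL51 (15.3 to 19.4). The ratio was 94.96 in favour of CAL51, with an interval of 16.9 to 3764. The single MDAMB468 UMI lay in a barcode of 28642 UMIs, while the CAL51 UMIs were spread over 220 barcodes, 178 of them with 1 UMI each and none with more than 5. No SMAD4 UMI lay in the 31 left-out barcodes. RNA from the other line was scarce in the barcodes kept: GPC3, with 10814 UMIs in CAL51, had 0 UMIs in MDAMB468, and KRT7, with 5243 in MDAMB468, had 0 in the CAL51 barcodes kept. A readthrough gene, ENSG00000267699, overlaps SMAD4 and its neighbour ELAC1 on the same strand and had 0 UMIs in MDAMB468 and 4 in CAL51.

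SMAD7, which blocks the type I receptor, had 16 UMIs in MDAMB468, or 2.91 CPM (1.66 to 4.72), against 703 in CAL51, or 43.3 CPM (40.2 to 46.7). It was 14.9-fold higher in CAL51 (9.11 to 26.2), in 458 of 1346 CAL51 barcodes against 13 of 306 MDAMB468 barcodes.

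Across the complete SMAD family of 8 genes, 7 were lower in MDAMB468 and only SMAD1 was higher, and these directions were the same under every setting run. SMAD1 and SMAD5, which carry BMP signals, went in opposite directions, with 208 and 269 UMIs in MDAMB468 and 320 and 1459 in CAL51 (log2 differences 0.90 and -0.87). SMAD9, the third BMP-activated SMAD, had 3 and 118 UMIs (log2 difference -2.42), and SMAD6, which inhibits BMP receptors, had 23 and 266 (-1.75). Thus 5 of the 8 were at least 2-fold higher in CAL51 and 0 in MDAMB468, where all genes gave 18.6% and 15.8%. Of all 15347 genes with at least 20 UMIs, 8454 were lower in MDAMB468. SMAD3, SMAD4 and SMAD7 are also counted among the 10 genes above, so the family is not a separate result.

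ID1 and ID3 encode helix-loop-helix proteins without a DNA-binding region, which hold back differentiation factors. ID1 (ENSG00000125968) had 28 UMIs in MDAMB468, or 5.09 CPM (3.38 to 7.36), against 13922 in CAL51, or 858 CPM (844 to 873). It was 169-fold higher in CAL51 (117 to 254), with a log2 difference of -7.14, the lowest of the 10 genes. ID3 (ENSG00000117318) was well detected in both lines, with 987 UMIs in MDAMB468, or 179 CPM (168 to 191), against 28565 in CAL51, or 1761 CPM (1740 to 1781). Its 9.81-fold higher level in CAL51 had an interval of 9.21 to 10.5. The left-out barcodes held 42 ID1 and 121 ID3 UMIs. The other ID genes went the same way: ID2 had 578 and 11905 UMIs (6.99-fold higher in CAL51, 6.43 to 7.61) and ID4 had 636 and 5644 (3.01-fold, 2.77 to 3.27). All 4 ID genes were thus at least 2-fold higher in CAL51, under every setting run. Over all genes, 18.6% were at least 2-fold higher in CAL51 in the main setting.

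The sequence just before the start site is shown for the targets ID1 and ID3 and for TGFB2, the gene of the 10 that was higher in MDAMB468. RefSeq (GRCh38.p14) gave 25 start site windows for the 10 genes, with all 10 matched. The 250 bases before each start were searched on both strands for CAGAC and GTCTAGAC (letters bound by SMAD3 and SMAD4), GGCGCC (letters found in BMP-responsive elements), the E-box CACGTG, and the basal promoter letters CCAAT and TATAAA. Bases within the GENCODE gene are not printed, and capitals mark any of these 6 motifs. ID1 lies at chr20:31605039-31605282 and TGFB2 at chr1:218345086-218345335, both on the plus strand.
ID1: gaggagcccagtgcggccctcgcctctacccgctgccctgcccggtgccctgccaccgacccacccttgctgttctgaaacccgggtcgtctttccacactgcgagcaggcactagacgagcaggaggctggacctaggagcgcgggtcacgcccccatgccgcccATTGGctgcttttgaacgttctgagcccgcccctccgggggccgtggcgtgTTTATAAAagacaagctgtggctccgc
TGFB2: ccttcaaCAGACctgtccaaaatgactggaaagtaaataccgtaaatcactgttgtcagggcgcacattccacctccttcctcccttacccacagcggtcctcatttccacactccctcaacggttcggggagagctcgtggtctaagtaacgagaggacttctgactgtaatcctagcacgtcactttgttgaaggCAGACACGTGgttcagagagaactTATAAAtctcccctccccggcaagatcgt
The ID1 stretch held CCAAT on the minus strand (the first capitals) and TATAAA with an overlapping match on the minus strand. The TGFB2 stretch held CAGAC at 2 places, the second overlapping CACGTG, and TATAAA once. For ID3 the RefSeq window lies inside the first exon of the GENCODE model, so only the 25 bases around its single CAGAC (chr1:23559634-23559658, minus strand, with the motif beginning 147 bases before the RefSeq start site) are shown.
ID3: tcttcggcgtCAGACcagccggagg
Of all 35116 RefSeq windows, 38.003% held CAGAC, 0.182% GTCTAGAC, 16.4% GGCGCC, 6.34% CACGTG, 32.0% CCAAT and 10.7% TATAAA, so most of these letters are common. Neither GTCTAGAC nor GGCGCC occurred in the 3 windows, which says only that these letters are absent from them.

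Shares of barcodes with at least 1 UMI were compared after thinning every barcode of both lines to 2500 UMIs, a depth that all barcodes reached. ID1 was present in 1065 of 1346 CAL51 barcodes (79.1%, 76.9% to 81.3%) and in 3 of 306 MDAMB468 barcodes (0.98%, 0.203% to 2.84%). ID3 was present in 88.1% of CAL51 barcodes (86.3% to 89.8%) and 39.2% of MDAMB468 barcodes (33.7% to 44.9%). Before thinning, the shares were 94.3% and 6.86% for ID1 and 96.0% and 69.3% for ID3. Detection of the ID genes therefore differed between the lines at equal depth, in the same direction as their levels.

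The signalling genes were seen in few barcodes at this depth. SMAD7 was present in 9.36% of CAL51 barcodes (7.86% to 11.04%) and 0.654% of MDAMB468 barcodes (0.0793% to 2.34%). SMAD4 was present in 50 of 1346 CAL51 barcodes (3.71%, 2.77% to 4.87%) and 0 of 306 MDAMB468 barcodes, for which the exact upper limit is 1.20% (0.98% by the rule of 3 counts). At this depth SMAD4 was in few barcodes of either line, so this limits barcodes with a UMI, not cells that express the gene. TGFB2 showed the reverse, in 40 of 306 MDAMB468 barcodes (13.1%, 9.51% to 17.4%) and 1 of 1346 CAL51 barcodes (0.0743%, 0.00188% to 0.413%). For SMAD2, the random draw gave 8.50% of MDAMB468 and 8.47% of CAL51 barcodes, and the expectation over all draws was 6.69% and 10.3%, so the draw and the expectation differ on it. Thinned to 5000 UMIs, which fewer barcodes reached, SMAD2 was in 11.8% of 212 MDAMB468 barcodes (7.78% to 16.9%) and 19.6% of 1071 CAL51 barcodes (17.3% to 22.1%). TGFB1, TGFBR1, TGFBR2 and SMAD3 were in 2.60% to 3.27% of CAL51 barcodes and 0.654% to 1.31% of MDAMB468 barcodes, with overlapping intervals for each gene. Shares without satellite barcodes come from another random draw. In it 242 MDAMB468 barcodes remained, of which 16.5% held TGFB2, 35.5% ID3, 0.826% ID1, and 0 SMAD4 or TGFBR1. TGFBR1 had 0 UMIs in the MDAMB468 satellites, so its change from 0.654% reflects the draw and not their removal. In CAL51 the SMAD2 share without satellites was 10.5%.

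**Figure D2:**
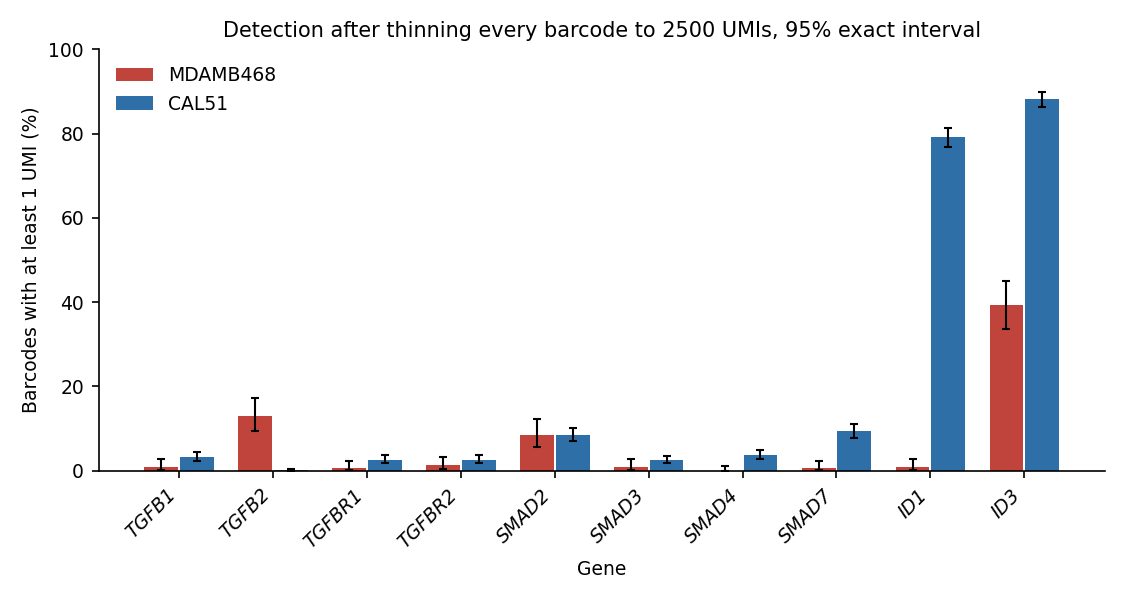
Percent of barcodes with at least 1 UMI of each gene after every barcode was thinned to 2500 UMIs, in MDAMB468 (red, 306 barcodes) and CAL51 (blue, 1346 barcodes), with 95% exact binomial intervals. ID1 stands at 0.98% and 79.1%, TGFB2 is the only gene with a clearly higher bar in MDAMB468, and SMAD4 has no bar in MDAMB468.

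Within CAL51, ID1 and ID3 could be followed barcode by barcode. At 2500 UMIs the number of ID1 UMIs per barcode ran from 0 to 13 with a median of 2 and quartiles of 1 and 3. That of ID3 ran from 0 to 22 with a median of 4 and quartiles of 2 and 7. The Fano factor, the variance over the mean, was 1.76 for ID1 and 3.08 for ID3, and 0.964 to 1.09 for the 7 signalling genes other than TGFB2, which have far lower means. Counting alone gives a value of 1, and at such low means the factor stays near 1 even where cells differ. It therefore cannot show whether the signalling genes vary between cells.

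ID1 and ID3 tended to be found in the same CAL51 barcodes. ID3 was present in 91.8% of the barcodes with ID1 and in 74.0% of those without it, and both were present in 978 barcodes where the product of their shares gives 938. Among 6256 genes present in at least 5% of barcodes, the gene most like ID1 over the 1346 barcodes was ID3 (Pearson's r of log counts 0.44), followed by ID2 (0.30). The genes most like ID3 were ID1, ID2 (0.35) and ID4 (0.21). All barcodes come from 1 library and were set to the same depth, and r is given as a description. For SMAD2 and SMAD7 no gene reached an r of 0.2. Of the other pairs among the 10 genes, TGFBR2 and SMAD7 were together in 9 barcodes where the product of shares gives 3.37, the highest ratio of the 45 pairs, on too few barcodes to read.

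CAL51 barcodes were also clustered without the 10 genes and the pathway lists, and 5 clusters of at least 50 barcodes resulted, with 315, 296, 256, 256 and 214 barcodes. Clusters 0 and 4 were led by mitotic genes such as PLK1 and by linker histone genes such as H1-3, and cluster 2 by NTS and COL2A1. ID1 ran from 812 to 958 CPM and ID3 from 1654 to 1871 CPM over these clusters, ratios of 1.18 and 1.13 between the highest and the lowest. SMAD2 ran from 36.8 CPM in cluster 1 (29.7 to 44.99) to 59.5 in cluster 4 (50.8 to 69.2), with intervals that do not overlap, and SMAD7 from 38.03 to 45.8. SMAD4 was lowest in cluster 3 (13.6 CPM, 9.64 to 18.5) and highest in cluster 4 (23.6 CPM, 18.3 to 30.1), intervals that just overlap. No cluster of CAL51 with at least 50 barcodes came near the MDAMB468 level of ID1, ID3, SMAD4 or SMAD7. In MDAMB468, clustered by itself, the 3 clusters of at least 50 barcodes had ID3 at 162 to 210 CPM. The cluster led by interferon genes such as IFIT2 held 25 satellites among its 90 barcodes. Without satellite barcodes, the interferon-led cluster had 9 barcodes. Of the 28 ID1 UMIs, 18 were in the cluster led by mitotic genes such as PLK1 (9.54 CPM, 5.65 to 15.1). The other large clusters had ID1 at 3.18 CPM (1.03 to 7.43) and 2.26 CPM (0.617 to 5.80), intervals that overlap. Without satellites, ID1 stood at 6.84 CPM (3.83 to 11.3) in the mitotic cluster, against 3.42 and 3.38. The single SMAD4 UMI was in the mitotic cluster. TGFB2 stood at 114, 47.0 and 64.6 CPM in the 3 clusters, but at 65.6, 56.9 and 80.2 CPM in those found without satellite barcodes. No order of clusters is read for ID1 or TGFB2.

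**Figure D3:**
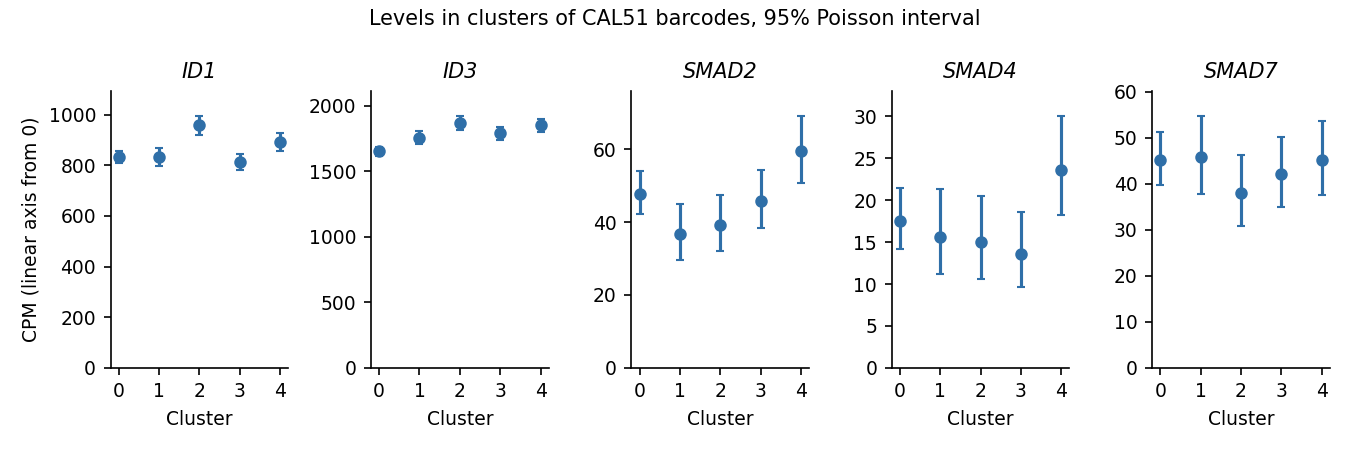
Level of ID1, ID3, SMAD2, SMAD4 and SMAD7 in CPM in the 5 clusters of CAL51 with at least 50 barcodes, with 95% Poisson intervals and each axis starting at 0. ID1 and ID3 stay within 1.18-fold and 1.13-fold, and SMAD2 and SMAD4 have their highest points in cluster 4.

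Other genes of the pathway were taken from 5 lists: ligands and latent-binding proteins, receptors, SMADs and partners, inhibitors, and targets. Of their 58 genes, 57 had an entry and 50 had at least 20 UMIs. Of these 50, 15 were at least 2-fold higher in CAL51 and 11 in MDAMB468, where all genes gave 18.6% and 15.8%, and 24 in neither, with a median log2 difference of -0.52 against -0.13 over all genes. Both directions occurred among the ligands, receptors, inhibitors and targets.

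Ligands (median -0.68) showed the widest split, with 6 of 12 at least 2-fold higher in CAL51 and 4 in MDAMB468. All genes gave 18.6% and 15.8%. BMP4, a BMP that induces ID genes, had 22 UMIs in MDAMB468 and 2028 in CAL51, 31.3-fold higher in CAL51 (20.6 to 49.997). GDF15, a stress-induced member of the family, had 0 and 240 UMIs and was, against a floor of 3 counts in the library, 27.1-fold higher in CAL51. The activin subunits went the other way. INHBA had 208 and 2 UMIs (307 times as high in MDAMB468, 83.8 to 2549), and INHBB had 191 and 0 (188-fold higher in MDAMB468 against that floor). The others past 2-fold were TGFB3, GDF11, LTBP1 and LTBP4 in CAL51 and BMP7 and LTBP3 in MDAMB468.

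Of 9 receptors (median -0.56), 3 were at least 2-fold higher in CAL51 and 1 in MDAMB468, where all genes gave 18.6% and 15.8%. TGFBR3, the betaglycan that presents TGFB2 to the signalling receptors, had 5 UMIs in MDAMB468 and 283 in CAL51, 19.2-fold higher in CAL51 (8.13 to 59.6). The line with more TGFB2 was thus the line with less TGFBR3. BMPR1B, a BMP type I receptor, had 0 and 139 UMIs (15.7-fold higher in CAL51 against the floor). ENG, a co-receptor best known from endothelium, had 59 and 0 UMIs and was 58.0-fold higher in MDAMB468 against the floor. The 3 endothelial markers summed to 108 UMIs in MDAMB468 and 7 in CAL51; PECAM1 had 6 and 4, CDH5 had 0 and 1, and KDR had 102 and 2. Their part in the ENG result was not tested. ACVR1, a type I receptor for BMPs and activins, had 21 and 55 UMIs, 1.13 times as high in MDAMB468 (0.647 to 1.89).

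Among 7 SMADs and partners (median -0.67), 2 were at least 2-fold higher in CAL51 and 0 in MDAMB468, where all genes gave 18.6% and 15.8%. Beside SMAD9 the second was CREBBP, a histone acetyltransferase that SMADs recruit, with 160 and 1391 UMIs (2.95-fold, 2.50 to 3.49). EP300, its paralog, had 332 and 1194 UMIs, a 1.22-fold higher level in CAL51 (1.08 to 1.38).

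Of 12 inhibitors, 2 were at least 2-fold higher in CAL51, 2 in MDAMB468 and 8 in neither (median -0.52), and over all genes 34.4% passed 2-fold in either direction. SKIL, a nuclear repressor of SMADs, had 403 and 2404 UMIs and sat at the limit, with a log2 difference of -1.01. GREM1, a secreted BMP antagonist, had 83 and 103 UMIs (log2 difference 1.13). PMEPA1, which sequesters SMAD2 and SMAD3 and is induced by TGF-beta, had 111 UMIs in MDAMB468 and 3 in CAL51, 109 times as high in MDAMB468 (36.4 to 537).

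Of 10 targets (median 0.17), 4 were at least 2-fold higher in MDAMB468 and 2 in CAL51, where all genes gave 15.8% and 18.6%. The 2 were ID2 and ID4. Highest in MDAMB468 were TGFBI, a matrix protein named for its induction by TGF-beta (71 and 0 UMIs, 69.8-fold against the floor), and CDKN2B, a cell cycle inhibitor induced by TGF-beta (65 and 13 UMIs, 14.7-fold, 8.05 to 29.2). The other pair past 2-fold in MDAMB468 was JUNB and COL1A1. Targets under 2-fold included CDKN1A, a cell cycle inhibitor (1.58-fold higher in CAL51, 1.28 to 1.95), CCN2, a matrix-associated protein (1.15-fold, 1.08 to 1.23), and FN1, fibronectin (1.47-fold, 0.930 to 2.43).

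**Figure D4:**
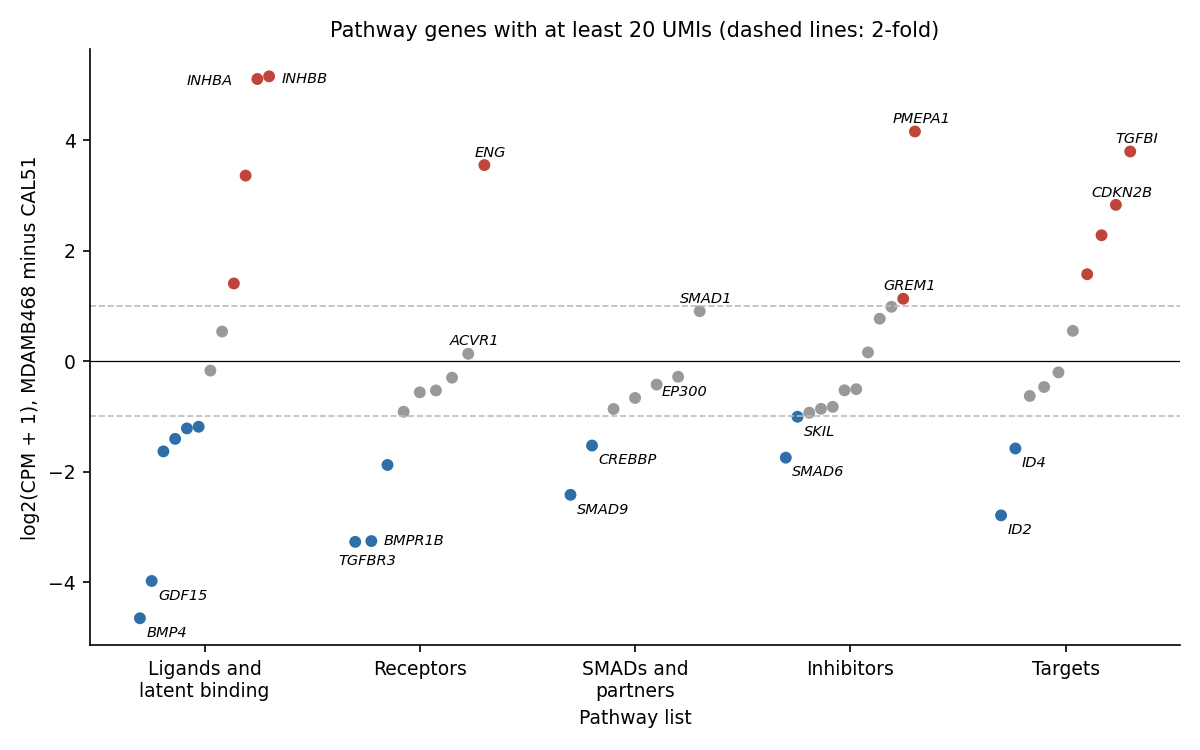
Difference in log2(CPM + 1), MDAMB468 minus CAL51, of the 50 pathway genes with at least 20 UMIs, by list, with genes at least 2-fold higher in MDAMB468 in red and in CAL51 in blue. INHBB, ENG, TGFBI, GDF15 and BMPR1B had 0 UMIs in 1 line, so the height of their points depends on the pseudocount of 1 CPM. In all, 11 genes are red and 15 blue.

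Since SMAD2, SMAD7 and SMAD4 lie on the same chromosome, the genes around them were compared. Within 5 Mb of the start of SMAD4 on chromosome 18, 33 genes had at least 20 UMIs. Besides the 3 SMADs, 18 of 30 were at least 2-fold higher in CAL51 and 1, RAB27B, in MDAMB468, where all genes gave 18.6% and 15.8%, with a median log2 difference of -1.10 against -0.13 over all genes. By lower coordinate, SMAD2 lies at -3.22 Mb and SMAD7 at -2.11 Mb from the start of SMAD4, both on the minus strand.

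ELAC1, a tRNA-processing enzyme at -60.4 kb from SMAD4 and its nearest neighbour with at least 20 UMIs, had 3 UMIs in MDAMB468 and 509 in CAL51 (ratio 57.5, 19.6 to 280). ME2, a mitochondrial malic enzyme on the far side of ELAC1 (at -149.66 kb), had 289 and 1504 UMIs and was 1.76-fold higher in CAL51 (1.56 to 2.01). MEX3C, an RNA-binding ubiquitin ligase on the minus strand, has its lower coordinate 146 kb after the start of SMAD4. It had 30 and 124 UMIs, 1.40 times as high in CAL51 (0.935 to 2.16), not a detectable difference. The intervals of ME2 and MEX3C, the next genes with at least 20 UMIs on either side of the pair, lie wholly below those of SMAD4 and ELAC1. Farther out, SKA1, a spindle protein at -653 kb, was 2.36-fold higher in CAL51 (1.95 to 2.88). On the other side MBD2, which binds methylated DNA, was 1.33-fold higher in MDAMB468 (1.14 to 1.55), and POLI, a DNA polymerase, was 3.09-fold higher in CAL51 (2.41 to 4.01). On the scale of log2(CPM + 1), SMAD7 (-3.50) stood lowest of the 33 genes after ELAC1 and SMAD4. SNHG22, with 0 UMIs in MDAMB468 and 165 in CAL51, lay close (-3.48). By ratio the order differed. RPL17-C18orf32, with 2 and 125 UMIs, was 21.2-fold higher in CAL51 (5.75 to 177), against 14.9-fold for SMAD7. This entry overlaps RPL17 and C18orf32 on the same strand, so its count also depends on how reads were assigned. RPL17 itself was 1.39-fold and C18orf32 2.71-fold higher in CAL51. SNHG22 was 18.7-fold higher in CAL51 against the floor of 3 counts. Positions are those of GENCODE release 29 (GRCh38), matched by gene identifier. Distances were taken from the lower coordinate of each gene, also for genes on the minus strand.

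**Figure D5:**
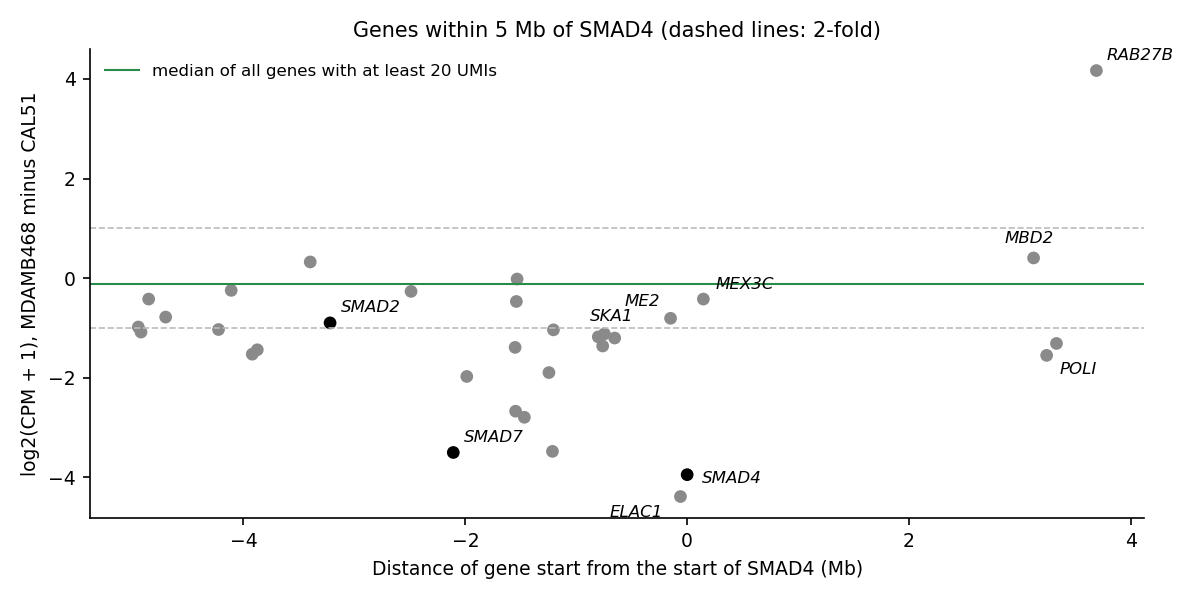
Difference in log2(CPM + 1), MDAMB468 minus CAL51, of the 33 genes with at least 20 UMIs within 5 Mb of SMAD4, with the SMADs in black. The horizontal axis is the distance of their lower coordinates from the start of SMAD4 in Mb. ELAC1 and SMAD4 lie lowest, ME2 and MEX3C on either side of them lie above -1, and most other points lie below the line at -0.13.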

How the data were processed

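The deposited matrix holds UMI counts per gene and barcode, made by the authors; STARsolo is named in the submitters' processing notes. Not given in the sources used here: its version, genome build, annotation, barcode selection and use of strand. The lowest deposited total was 2501 UMIs. Barcode names gave the line. Symbols were looked up by Ensembl identifier (30730 matched) and positions from GENCODE release 29. Counts were summed per line; CPM, log2(CPM + 1) differences, exact Poisson and Clopper-Pearson intervals and folds conditional on the total count were computed with Python 3.11.15, numpy 2.4.6 and scipy 1.17.1, and tested on simulated data. For a gene at 0 UMIs the fold was computed against 3 counts in its library, and counting error in the other line was not included. Thinning drew 2500 UMIs without replacement. Clustering used scanpy 1.11.5 and leidenalg 0.10.2 (resolution 0.5). TMM factors came from edgeR 4.0.16. Doublets were not removed. The members and lists were chosen with earlier results of these data known. Named genes are the 10, the 2 highest and 2 lowest of each list with at least 20 UMIs, the 3 nearest detected genes on each side of SMAD4, and up to 3 genes most like a member at an r of at least 0.2; any other gene was named after its values were seen.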

Additional observations from a re-analysis of the deposited data

How the results depend on the processing

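The count of the 10 genes at least 2-fold higher in CAL51 fell from 7 to 4 with a pseudocount of 10 CPM, and that of the 50 pathway genes from 15 to 7, while the count higher in MDAMB468 went from 11 to 8. With the total without mitochondrial and ribosomal protein genes, the pathway counts were 14 and 13. The median log2 difference of the 30 other genes around SMAD4 was -1.10; it moved to -1.23 with TMM, -1.24 with the median of ratios, -0.999 with a total without mitochondrial and ribosomal protein genes, -0.80 with a pseudocount of 10 CPM and -0.99 with each barcode weighted equally. TMM and the median of ratios moved the median of all genes to -0.24 and -0.25. Each of the 10 genes kept its direction in all 9 other settings, and the log2 difference of SMAD4 ran from -5.95 to -1.42, that of TGFB2 from 2.95 to 6.54. The setting without the MDAMB468 barcode richest in TGFB2 was chosen after seeing the data. At a Leiden resolution of 0.2, CAL51 formed 1 cluster. Counts under 30 UMIs in MDAMB468 limit TGFB1, TGFBR1, SMAD3, SMAD4, SMAD7 and ID1. No paired analysis was possible because each line has 1 library.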
